A study of Mus musculus with 9 samples.

Results

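The core machinery of macroautophagy was followed as 36 genes, picked by name and function from the starter kinases to the main cargo receptors. The rule uses no measured value, but earlier results of these data were known when the genes were picked. The 36 genes were looked up among the 26602 genes with a count in the midbrain of DJ-1+/+ and DJ-1-/- mice. All 36 were found, all 36 had counts, and all 36 were among the 18127 genes whose counts summed to 10 or more across the 9 libraries, which were the genes compared between genotypes.

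Macroautophagy is the process by which a cell wraps part of its cytoplasm in a double membrane, the autophagosome, and delivers it to the lysosome for breakdown. The machinery works in order, from a starter kinase and a lipid kinase through membrane growth to a conjugation system that couples small ATG8 proteins to the membrane, where cargo receptors bind them. Neurons do not divide and depend on this route to clear protein aggregates and damaged mitochondria, and it has been studied closely in Parkinson's disease, in which mutations of DJ-1 cause a recessive early-onset form.

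The tissue was midbrain with the substantia nigra, snap frozen, from 4 DJ-1+/+ mice (wild type) and 5 DJ-1-/- mice (knockout), aged 3 to 4 months and given no treatment. The DJ-1-/- line carries a targeted allele in the germ line, was backcrossed to C57BL/6 over 7 generations, and was bred from heterozygous parents, and mice of both genotypes shared cages. Libraries were made from 100 ng of total RNA with a kit that reads a fragment near the polyadenylated 3′ end of a transcript. Long transcripts thus gain no extra counts. Levels of different genes are set side by side as counted, and whether counts follow RNA alike for every gene was not tested. Each transcript molecule was counted once by its unique molecular identifier, and a level is given in cpm, that is, per 1000000 counts of its library. The totals were between 841974 and 886085 in DJ-1+/+ and between 967751 and 1098125 in DJ-1-/- mice, so that 1 count was worth about 1 cpm.

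Park7, the gene that encodes DJ-1, checked the labels. Wild-type counts were 132, 105, 113 and 118, against 23, 29, 14, 19 and 19 in the knockouts. The groups were far apart, and the log2 fold change was -2.71 (SE 0.15, adjusted p = 7.39e-08 by edgeR, with the quasi-likelihood test and Benjamini-Hochberg adjustment over all genes).

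The 9 libraries were not alike in tissue make-up. Summed over 12 choroid plexus markers, the level ran from 109 to 880 cpm in the DJ-1+/+ group, against 102 to 219 cpm in the DJ-1-/- group, and over 10 cerebellar markers it ran from 479 to 1486 cpm, against 484 to 708 cpm. The high values were those of DJ-1+/+ replicates 1 and 4. Summed over 12 dopaminergic markers, the range was 621 to 1129 cpm in the DJ-1+/+ group, against 880 to 1167 cpm in the DJ-1-/- group. In edgeR's test 7 of the 12 choroid plexus markers and 6 of the 10 cerebellar markers were lower, and 6 of the 12 dopaminergic markers higher, in DJ-1-/- at an unadjusted p under 0.05. Markers of neurons in general, astrocytes, oligodendrocytes, microglia and endothelium overlapped between genotypes in their summed level, with 1 of their 50 genes, a neuronal one, past that threshold. Xist, the RNA of the inactive X chromosome, had at most 2 counts in replicates 1 and 4 of the DJ-1+/+ group and replicate 5 of the DJ-1-/- group, against 146 to 193 in the other 6, so that sex was also not evenly spread. Fewer cells of a type and less RNA per cell cannot be told apart in such tissue. For the sum of the 36 genes, for their fold changes as a list, and for the single genes whose log2 fold change moved by more than its SE, values without DJ-1+/+ replicates 1 and 4 are also given below. The DJ-1+/+ mice then left, replicates 2 and 3, both had Xist counts, while DJ-1-/- replicate 5 stayed in. Leaving out replicates 1 and 4 thus changes tissue make-up and sex together, and the 2 cannot be told apart.

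No core autophagy gene passed the test of a difference between the genotypes. With edgeR, 0 of the 36 genes had an unadjusted p under 0.05 and 0 had an adjusted p under 0.05, and DESeq2's test also gave 0 on both counts. Among all 18127 genes tested, 2.83% (513 genes, or 338 to 732 with any 1 library removed) had an unadjusted p under 0.05 (1.57% higher and 1.26% lower in DJ-1-/- mice), and 0.00552%, which is Park7 alone, passed after adjustment. The cpm of the genotypes overlapped for every one of the 36, where 1.25% of all genes tested did not overlap. The smallest unadjusted p among the 36 was 0.0542, for Pik3r4, and every adjusted p was 1.

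The absence of calls came with narrow limits on the difference in counts. The 95% interval of the fold change lay between 1.5-fold lower and 1.5-fold higher for 33 of the 36 genes (91.7%), against 49.9% of all genes tested, and within 2-fold either way for 35 of 36 (97.2%), against 67.4%. The 3 genes with a wider interval than 1.5-fold were Atg9a and Atg4a, which had 15 and 94 counts over all 9 mice, and Tbk1. Leaving out Atg9a, which was too scarce for a fold change to be given, 17 genes had a log2 fold change above 0 and 18 below, 30 of the 35 lay within 0.1 of 0, and the median was -0.0052, beside 0.0079 for all genes tested. Without DJ-1+/+ replicates 1 and 4, 13 of the 35 were above 0 and 22 below, 24 lay within 0.1 of 0, 12 had turned sign, and the median was -0.0157. The spread of counts between mice of one genotype was also small. Its ratio to the spread that counting error alone gives had a median of 0.863 over the 36 genes and of 1.12 over all genes tested, and it was above 2 for 5.56% and 19.3% of them. The ratio was under 1 for 22 of the 36 genes and for 7783 of the 18127. Of the 36 genes 34 had at least 20 counts in every library, and the comparisons with all genes were not matched for depth. The intervals bound a difference in counts, and whether counts rise in proportion to RNA at these levels was not tested.

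**Figure D1:**
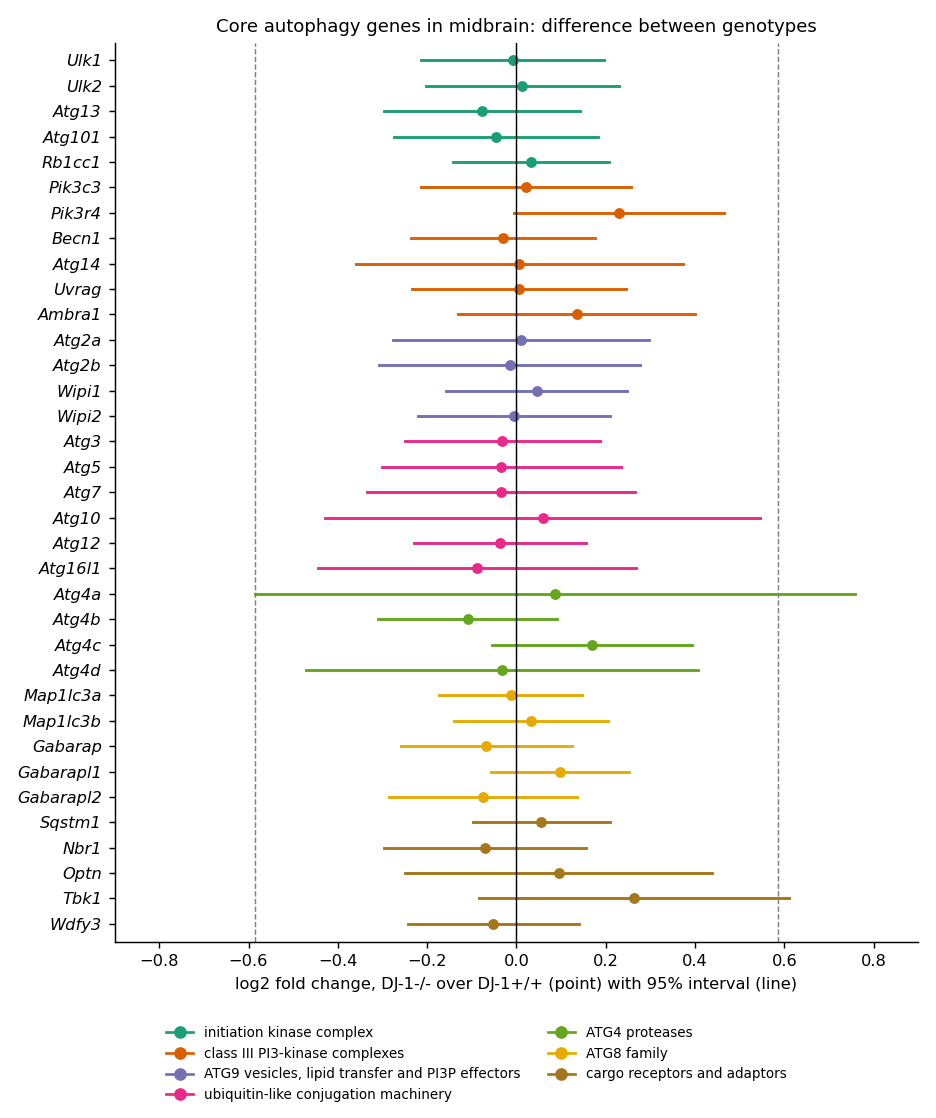
Log2 fold change of 35 core autophagy genes (DJ-1-/- over DJ-1+/+, horizontal axis; points, with the 95% interval as a line), coloured by role. The dashed lines mark a fold change of 1.5 in either direction; every interval crosses 0, and those of Atg4a and Tbk1 reach past a dashed line. Atg9a, with 15 counts in all, is left out.

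In sum the 36 genes made up 3414 ± 78.3 cpm in the DJ-1+/+ group (SD, n = 4) against 3444 ± 80.2 cpm in the DJ-1-/- group (SD, n = 5). The lowest and highest sums were 3326 and 3498 cpm in the DJ-1+/+ group, against 3316 and 3520 cpm in the DJ-1-/- group, so that 1 range lay within the other. DJ-1+/+ replicate 4, with the most choroid plexus RNA, had a sum of 3326 cpm, and DJ-1+/+ replicate 1, with the most cerebellar RNA, 3373 cpm. These were the lowest sums of the DJ-1+/+ group. The other DJ-1+/+ mice had a mean of 3478 cpm, which is above that of the DJ-1-/- group, so that the sign of the small difference turned without replicates 1 and 4. The part of tissue make-up in this was not tested.

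**Figure D2:**
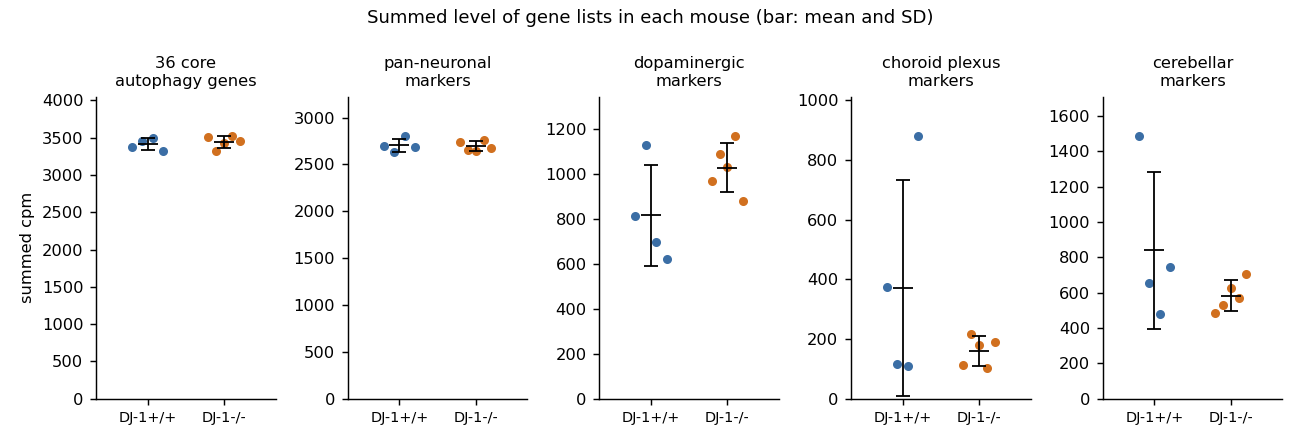
Summed level in cpm (vertical axes, each from 0) of the 36 core autophagy genes and of 4 marker lists in each mouse (points), with the mean and SD of each genotype. The autophagy sums sit between 3316 and 3520 in all 9 mice, while the choroid plexus sums run from 102 to 880 and the cerebellar sums from 479 to 1486.

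The genes covered a wide range of levels. Over the 9 mice 16 genes had a mean above 100 cpm, 14 between 50 and 100 cpm and 6 under 50 cpm. Gabarapl1, an ATG8 gene, was the most abundant at 248 ± 19.2 cpm (SD, n = 9), above 99.0% of all genes tested. It was followed by the cargo receptor Sqstm1 (p62) at 204 ± 13.5 cpm, the ATG8 gene Map1lc3b (LC3B) at 196 ± 16.3 cpm and the scaffold of the starter kinase, Rb1cc1 (FIP200), at 166 ± 12.5 cpm. Gabarapl1 was above Sqstm1 in 9 of 9 mice, although the lowest Gabarapl1 and the highest Sqstm1 values of different mice overlapped. Of the 35 pairs of neighbours in the order, 33 overlapped over the 9 mice, and the steps that did not were the last ones, from Atg4d at 37.7 ± 7.96 cpm to Atg4a at 11.03 ± 2.59 cpm and from Atg4a to Atg9a at 1.72 ± 1.55 cpm. Atg4a and Atg9a were also the only genes of the 36 with fewer than 20 counts in some library. The 3′ end of Atg9a is also exon of another gene on the same strand, described below. Whether its counts follow its RNA level was not tested.

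**Figure D3:**
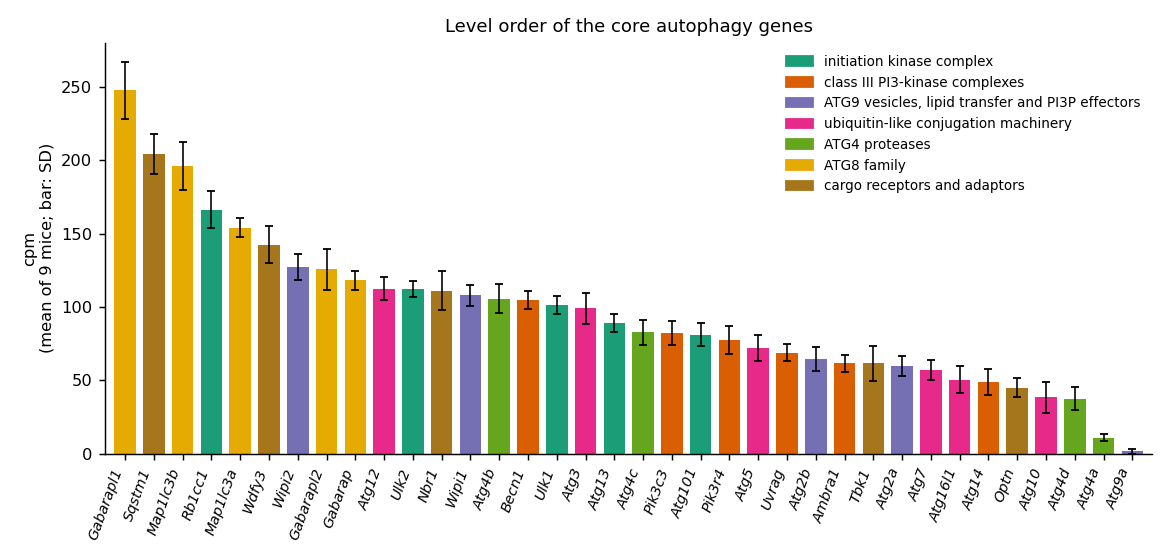
Mean level of each of the 36 core autophagy genes in cpm (vertical axis, from 0) over 9 mice, with the SD as error bar, in order of level and coloured by role. Gabarapl1 leads at 248, most neighbours are within each other's error, and the drop at the end is to Atg4a at 11.03 and Atg9a at 1.72. The 3′ end of Atg9a is also exon of another gene on the same strand.

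The starter complex, in which the kinases Ulk1 and Ulk2 are bound by Atg13, Atg101 and Rb1cc1, was at 552 ± 18.3 cpm in the DJ-1+/+ group (SD, n = 4) against 549 ± 15.9 cpm in the DJ-1-/- group (SD, n = 5) as a sum. None of its 5 genes passed the test, and their log2 fold changes were between -0.08 and 0.03. Rb1cc1 had the highest, at 0.03 (SE 0.08), with 177, 158, 145 and 177 cpm in the DJ-1+/+ group, against 154, 164, 168, 170 and 185 cpm in the DJ-1-/- group. Without DJ-1+/+ replicates 1 and 4 it was 0.15 (unadjusted p = 0.1631 by edgeR), and Atg101, which stabilises Atg13, went from -0.05 to -0.16 (unadjusted p = 0.2561). Atg13, the regulatory subunit, had the lowest, at -0.08 (SE 0.10), with 82.0, 94.3, 88.4 and 102 cpm in the DJ-1+/+ group, against 83.1, 90.2, 86.7, 83.7 and 90.6 cpm in the DJ-1-/- group. The DJ-1-/- values of Atg13 lay inside the DJ-1+/+ range. The kinases themselves stood at almost the same level, Ulk1 supplying 47.6 ± 1.61% of the sum of both in DJ-1+/+ and 47.2 ± 2.51% in DJ-1-/- mice.

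The class III phosphatidylinositol 3-kinase makes the lipid PI3P that marks the growing membrane. Its catalytic subunit Pik3c3 (VPS34), the Beclin gene Becn1, the alternative partners Atg14 and Uvrag and the regulator Ambra1 had log2 fold changes between -0.03 and 0.13. Becn1 was the lowest, at -0.03 (SE 0.10), with 105, 103, 102 and 114 cpm in the DJ-1+/+ group, against 92.1, 107, 104, 106 and 110 cpm in the DJ-1-/- group. Atg14, which directs the kinase to autophagosomes, supplied 41.1 ± 5.50% of the sum of Atg14 and Uvrag in DJ-1+/+ and 41.7 ± 3.06% in DJ-1-/- mice. Without DJ-1+/+ replicates 1 and 4 the sign turned for Pik3c3, from 0.02 to -0.09, and for Atg14, from 0.01 to -0.17 (unadjusted p = 0.491 and 0.3667 by edgeR).

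Pik3r4 (VPS15), the scaffold on which this lipid kinase is built, came closest to a difference. The gene is on the plus strand of chromosome 9, from 105642978 to 105687657 (GRCm38), and had 59.4, 85.2, 72.1 and 65.5 cpm in the DJ-1+/+ group, against 80.1, 79.2, 83.6, 84.7 and 86.7 cpm in the DJ-1-/- group. The DJ-1-/- mice lay close together at the top, 3 of the 4 DJ-1+/+ mice were below all of them, and DJ-1+/+ replicate 2 was within their range. The log2 fold change was 0.23 (SE 0.11, 95% interval from -0.0047 to 0.47, unadjusted p = 0.0542 by edgeR). The exact two-sided permutation test of its cpm gave p = 0.0794, where the smallest p that 4 mice against 5 allow is 0.0159. Without DJ-1+/+ replicate 2 edgeR's value was 0.33 (unadjusted p = 0.0115), and without DJ-1+/+ replicates 1 and 4 it was 0.08 (unadjusted p = 0.5976). Replicates 1 and 4 had the lowest Pik3r4 values and the highest choroid plexus and cerebellar sums. The log2 fold change of Pik3r4 was 0.05 among the 6 mice with Xist counts.

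The next group carries membrane to the growing autophagosome. Atg2a and Atg2b transfer lipid, and Wipi1 and Wipi2 bind PI3P. The log2 fold changes of these 4 genes were between -0.02 and 0.05. Wipi1 was the highest, with 109, 97.7, 116 and 102 cpm in the DJ-1+/+ group, against 119, 102, 105, 111 and 111 cpm in the DJ-1-/- group. Atg2b was the lowest, with 70.1, 65.9, 62.8 and 62.1 cpm in the DJ-1+/+ group, against 78.1, 52.8, 60.9, 56.8 and 74.1 cpm in the DJ-1-/- group, and the DJ-1-/- values reached both higher and lower. Wipi1 supplied 45.5 ± 3.17% of the WIPI counts in the DJ-1+/+ group, against 46.4 ± 2.31% in DJ-1-/- mice, and Atg2a 47.5 ± 3.72% and 48.5 ± 5.16% of the ATG2 counts.

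Atg9a, the transmembrane protein of the vesicles that seed the autophagosome, was nearly uncounted. Its counts were 2, 1, 0 and 0 in the DJ-1+/+ group, against 2, 2, 5, 1 and 2 in the DJ-1-/- group. These values are at or under 3 counts in 8 of 9 libraries, so that no fold change between genotypes is given. The gene is on the minus strand of chromosome 1, from 75180860 to 75192196. Its 3 coding transcripts in GENCODE M21 together hold 306 bases within 300 bases of their 3′ ends, and 100% of these are also exon of another annotated gene on the same strand, Gm29253, which had no count in any library. No other core gene had its 3′ end covered on the same strand. On the opposite strand the 3′ ends of Becn1 (65.7% of the bases, by Cntd1), Wdfy3 (29.3%), Sqstm1 (21.7%) and Map1lc3b (19.3%) were covered in part. A read from a stretch that is exon of both genes cannot be told apart by its position, and the part of this overlap in the low Atg9a count was not tested.

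The conjugation machinery works like that of ubiquitin. Atg7 activates and Atg3 and Atg10 carry the ubiquitin-like proteins, and Atg12, Atg5 and Atg16l1 form the complex that places ATG8 proteins on the membrane. None of the 6 genes passed the test, 5 of their log2 fold changes were below 0, and the range was -0.09 to 0.06. The highest was Atg10 at 0.06 (SE 0.23), with 24.9, 46.6, 46.5 and 32.7 cpm in the DJ-1+/+ group, against 58.1, 41.0, 36.1, 28.9 and 32.2 cpm in the DJ-1-/- group. The values lay far apart between mice of one genotype, and the spread was 3.01 times that of counting error, the widest ratio of the 36. The sign of the Atg10 value depended on the libraries, at -0.24 without DJ-1+/+ replicates 1 and 4 (unadjusted p = 0.3422 by edgeR), -0.18 among the 6 mice with Xist counts, -0.10 with Xist as a covariate, and -0.13 without DJ-1-/- replicate 1. Atg16l1 was the lowest at -0.09 (SE 0.17), with 41.6, 52.3, 46.5 and 68.8 cpm in the DJ-1+/+ group, against 41.0, 58.3, 47.5, 44.4 and 54.6 cpm in the DJ-1-/- group. As a sum the machinery was at 435 ± 18.8 cpm in the DJ-1+/+ group, against 426 ± 26.1 cpm in the DJ-1-/- group.

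The ATG4 proteases trim ATG8 proteins before conjugation and release them afterwards. Atg4b, the main protease for ATG8 proteins, was the lowest of the 4, with 127, 106, 109 and 99.3 cpm in the DJ-1+/+ group, against 103, 106, 109, 102 and 90.6 cpm in the DJ-1-/- group, a log2 fold change of -0.11 (SE 0.09). Atg4c was the highest, with 71.3, 75.01, 76.8 and 86.9 cpm in the DJ-1+/+ group, against 92.1, 82.0, 85.6, 78.5 and 97.4 cpm in the DJ-1-/- group, a log2 fold change of 0.17 (SE 0.11). For Atg4c the 5 DJ-1-/- mice were above 3 of the 4 DJ-1+/+ mice, and DJ-1+/+ replicate 4 lay among them. The share of Atg4b in the family was 46.6 ± 3.32% in DJ-1+/+ and 43.1 ± 3.98% in DJ-1-/- mice, and that of Atg4c 32.9 ± 3.89% and 36.6 ± 1.90%, with overlap in both. Atg4a, on the X chromosome, supplied 4.53 ± 1.43% and 4.76 ± 0.947%.

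The ATG8 proteins are the ubiquitin-like tags of the autophagosome, with an LC3 and a GABARAP branch. Their summed level was 838 ± 36.5 cpm in the DJ-1+/+ group, against 846 ± 47.8 cpm in the DJ-1-/- group. Gabarapl1 had 214, 251.2, 254 and 235 cpm in the DJ-1+/+ group, against 266, 253, 245, 279 and 233 cpm in the DJ-1-/- group. It had the highest log2 fold change of the family, 0.10 (SE 0.07, 95% interval from -0.06 to 0.25), and the ranges overlapped. Map1lc3b, the form most used as an autophagosome marker, had 184, 201, 216 and 174 cpm in the DJ-1+/+ group, against 206, 201, 180, 219 and 185 cpm in the DJ-1-/- group. Map1lc3a (LC3A) had 162, 151, 152 and 155 cpm in the DJ-1+/+ group, against 162, 144, 154, 162 and 146 cpm in the DJ-1-/- group, and the DJ-1-/- range was the wider. The log2 fold changes of the LC3 genes were 0.03 (SE 0.08) and -0.01 (SE 0.08). Without DJ-1+/+ replicates 1 and 4, Gabarapl1 was at 0.02 and Map1lc3b at -0.07, neither past the test.

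In the GABARAP branch, Gabarap had 131, 115, 118 and 122 cpm in the DJ-1+/+ group, against 120, 115, 118, 120 and 106 cpm in the DJ-1-/- group. Gabarapl2 (GATE-16) had 151, 130, 135 and 103 cpm in the DJ-1+/+ group, against 136, 113, 123, 121 and 122 cpm in the DJ-1-/- group. Their log2 fold changes were both -0.07, and for Gabarapl2 the DJ-1-/- range lay inside that of the DJ-1+/+ mice.

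The make-up of the family differed little between mice. Of its 7179 counts, Gabarapl1 supplied 28.5 ± 2.05% in DJ-1+/+ and 30.2 ± 0.636% in DJ-1-/- mice, the ranges being 25.4 to 29.8% and 29.4 to 31.0%. The 5 DJ-1-/- mice were close to each other, and the DJ-1+/+ range was set by replicate 1, in which the share was 25.4% and that of Gabarapl2 17.9%, the highest of the 9. Map1lc3b supplied 23.1 ± 1.37% and 23.4 ± 0.994%, Map1lc3a 18.5 ± 1.06% and 18.2 ± 0.513%, Gabarap 14.5 ± 1.17% and 13.7 ± 0.443%, and Gabarapl2 15.4 ± 2.003% and 14.6 ± 0.933%. The shares of all 5 genes overlapped between genotypes.

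**Figure D4:**
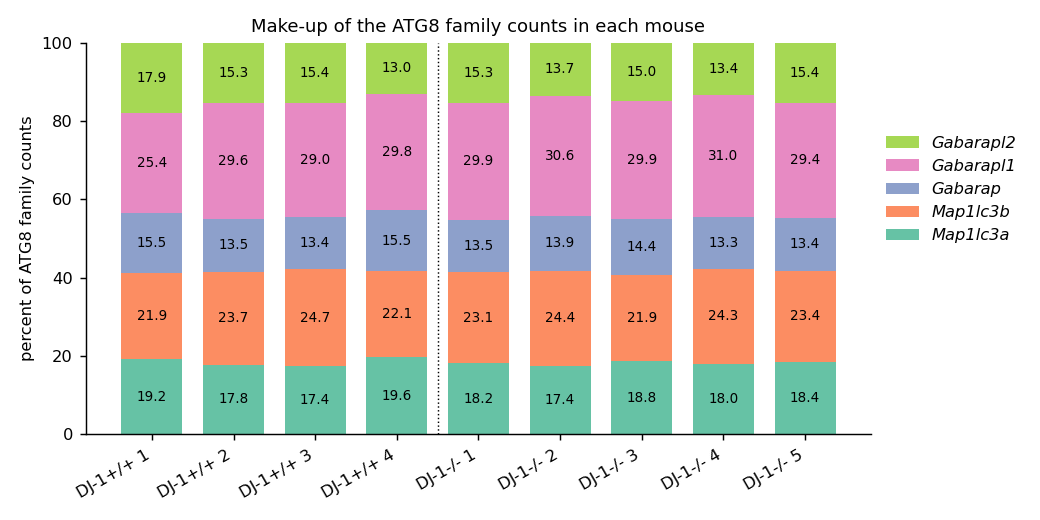
Share of each ATG8 gene in the ATG8 family counts (vertical axis, percent; 1 bar per mouse, DJ-1+/+ to the left of the dotted line). Gabarapl1 holds between 25.4 and 31.0% in every mouse and is the largest share in all 9.

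Cargo receptors link ubiquitin-tagged material to ATG8 proteins. Sqstm1, which gathers ubiquitinated aggregates and is itself broken down by autophagy, had 191, 216, 206 and 186 cpm in the DJ-1+/+ group, against 213, 195, 203, 229 and 199 cpm in the DJ-1-/- group. Its log2 fold change was 0.06 (SE 0.07, 95% interval from -0.10 to 0.21), and the upper end is 1.16-fold in these counts. Nbr1, a receptor of related build, had 102, 106, 140 and 109 cpm in the DJ-1+/+ group, against 115, 92.9, 118, 102 and 117 cpm in the DJ-1-/- group, and the log2 fold change was the lowest of the group at -0.07 (SE 0.11). Optn, the optineurin gene, had 34.4, 42.0, 55.8 and 41.8 cpm in the DJ-1+/+ group, against 46.0, 41.0, 44.4, 48.6 and 52.6 cpm in the DJ-1-/- group, with a log2 fold change of 0.09 (SE 0.16). Without DJ-1+/+ replicates 1 and 4 the log2 fold change of Optn was -0.07 and that of Sqstm1 -0.02, both of turned sign and neither past the test. Wdfy3 (ALFY), an adaptor for aggregates, had 158, 142, 142 and 140 cpm in the DJ-1+/+ group, against 126.1, 127, 134, 156 and 159 cpm in the DJ-1-/- group, with a log2 fold change of -0.05 (SE 0.09).

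**Figure D5:**
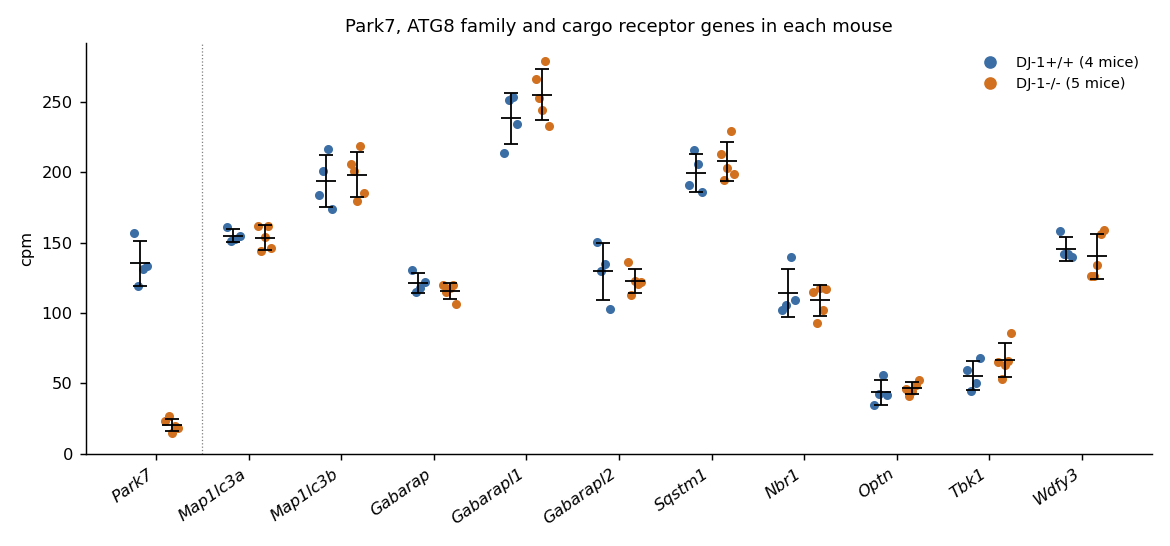
Level of Park7, the 5 ATG8 genes and the 5 cargo receptor and adaptor genes in cpm (vertical axis, from 0) in each of 4 DJ-1+/+ and 5 DJ-1-/- mice (points), with the mean and SD. Park7 separates the genotypes (119 cpm or more against 26.4 or less), while the points overlap for all 10 autophagy genes.

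Tbk1, the kinase that phosphorylates optineurin and p62, had the highest log2 fold change of the genes with enough counts, 0.26 (SE 0.16, 95% interval from -0.08 to 0.61, unadjusted p = 0.128 by edgeR). The gene is on the minus strand of chromosome 10, from 121546455 to 121586787. Its values were 59.4, 44.3, 50.03 and 67.7 cpm in the DJ-1+/+ group, against 65.1, 52.8, 62.9, 66.1 and 85.8 cpm in the DJ-1-/- group. Within each genotype the mice with hardly any Xist were the highest, at 59.4 and 67.7 cpm among the DJ-1+/+ mice and at 85.8 cpm among the DJ-1-/- mice. With Xist as a covariate in edgeR's model the log2 fold change was 0.43 (unadjusted p = 0.0064), and among the 6 mice with Xist counts it was 0.38 (unadjusted p = 0.05128). Without DJ-1+/+ replicates 1 and 4 it was 0.50 (unadjusted p = 0.0263), and without replicate 4 alone 0.38 (unadjusted p = 0.0461). The former fit has no DJ-1+/+ mouse with hardly any Xist, but keeps the DJ-1-/- mouse at 85.8 cpm, which had hardly any. Other fits gave less, with 0.15 (unadjusted p = 0.3607) without DJ-1-/- replicate 5, 0.16 (unadjusted p = 0.35) without DJ-1+/+ replicate 2 and 0.16 (unadjusted p = 0.3038) with the replicate number as a block. In none of these fits did Tbk1 pass after adjustment over all genes. Xist entered the model only as a covariate, and the difference between mice with and without Xist was not itself tested.

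Autophagy needs more than its core, so 59 further genes in 5 lists were looked up, of which 58 were tested (Calcoco2, a receptor gene, had 2 counts). Of the 58, 1 was higher and 0 were lower in DJ-1-/- at an unadjusted p under 0.05 by edgeR, or 1.72%, beside the 2.83% of all genes tested. Their median log2 fold change was 0.02. The gene was Tsc2, a brake on the growth kinase mTOR, with 39, 36, 31 and 45 counts in the DJ-1+/+ group, against 66, 67, 58, 53 and 48 counts in the DJ-1-/- group. In cpm this is 43.5 ± 6.40 (SD, n = 4) and 57.7 ± 7.30 (SD, n = 5), and the highest DJ-1+/+ mouse, at 50.8 cpm, was above the lowest DJ-1-/- mouse, at 46.8 cpm. The log2 fold change was 0.40 (SE 0.15, unadjusted p = 0.0158, adjusted p = 1 by edgeR). It was 0.58 without DJ-1+/+ replicates 1 and 4 and 0.33 in counts thinned to equal depth, where the unadjusted p was 0.05844. Without DJ-1+/+ replicate 3 edgeR gave 0.32 (unadjusted p = 0.05735). Its partner Tsc1 had a log2 fold change of 0.06 (SE 0.10) and Mtor one of 0.01 (SE 0.11), neither past the test.

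The other lists held no gene past that threshold. Among factors of phagophore formation the log2 fold changes ran from -0.20 for Nrbf2, a subunit of the lipid kinase, to 0.56 for Atg9b, the relative of Atg9a, which had 85 counts in all (SE 0.34 and 0.45). Among genes of fusion with the lysosome they ran from -0.24 for Vps33a (SE 0.12), of the tethering complex, to 0.36 for Plekhm1 (SE 0.24), an adaptor at the lysosome. Further cargo receptors lay between -0.21 for Calcoco1 (SE 0.15) and 0.44 for Ncoa4 (SE 0.38), the receptor for ferritin. The transcription factors of autophagy genes, among them the repressor Zkscan3 (0.10), lay between -0.09 for Foxo3 (SE 0.10) and 0.22 for Tfeb (SE 0.26). The upstream kinases and their regulators lay between -0.09 for Prkag1 (SE 0.09), a subunit of AMPK, and the 0.40 of Tsc2.

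Tfeb and its relatives bind the letters CACGTG, the E-box, and the promoters of the 36 genes were searched for it. In RefSeq (GRCm38.p6) 29 of the 36 genes had a promoter window of 250 bases before to 50 bases after the start of the gene. These windows were rich in G and C, with a median of 61.7% against 52.7% over 27025 genes. The letters CG, which GGGCGG and CACGTG hold, occurred at a median of 0.797 of the number expected from C and G, against 0.389. Of the 29, 20 (69.0%) held the letters GGGCGG on either strand, against 38.2% of all genes, and 5 (17.2%) held CACGTG, which reads alike on both strands, against 8.09%. The longer TCACGTGA, which contains the E-box, was in 1 of 29 (3.45%) and in 1.12% of all genes. These shares were not set against genes of like base content, and an excess of any motif was not tested. The stretches round the E-boxes are shown 5′ to 3′ on the strand of the gene, because the E-box is the sequence that Tfeb recognises, with the E-box in capitals:
Atg3 (chr16:45158723-45158752, plus strand): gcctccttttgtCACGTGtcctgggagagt
Atg3 (chr16:45158746-45158775, plus strand): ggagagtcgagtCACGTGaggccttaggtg
Atg5 (chr10:44268313-44268342, plus strand): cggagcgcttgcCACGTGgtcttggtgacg
Atg7 (chr6:114670952-114670981, plus strand): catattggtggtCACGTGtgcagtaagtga
Atg14 (chr14:47568418-47568447, minus strand): aaaacaaaatccCACGTGactggccctgag
Tbk1 (chr10:121586772-121586801, minus strand): cccgcactcggtCACGTGctccgtggcccg
Counted from the RefSeq start of the gene, the E-box began 94 and 71 bases before it in Atg3, 132 before it in Atg7, 14 before it in Atg5, 1 base before it in Atg14 and 5 bases after it in Tbk1. The gene starts in GENCODE M21 lie elsewhere for some of these genes, and counted from them the E-box began 27867 bases inside Atg7 and 2214 bases inside Atg14. These 5 genes with an E-box had log2 fold changes of -0.03 for Atg3, Atg5 and Atg7, 0.01 for Atg14 and 0.26 for Tbk1, none past the test. A match of letters is a description of the sequence, and binding was not measured.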

How the data were processed

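Midbrain RNA was sequenced from 4 DJ-1+/+ and 5 DJ-1-/- mice, 1 library per animal. The values deposited by the authors are UMI counts per gene, unnormalized whole numbers. The submitters' processing notes name fastp 0.20.0, STAR 2.7.3a, featureCounts 2.0.0, UMI-tools 1.0.0 and GRCm38. The annotation release and the use of strand in counting are not given in the sources used here. Counts were joined by Ensembl identifier, genes missing from a library were set to 0, and 26576 of 26602 identifiers were in GENCODE M21 (GRCm38). Depth differed between genotypes, so counts were also thinned to 841974 per library.

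Genes with at least 10 counts over 9 libraries were tested with edgeR 4.0.16 (TMM, glmQLFit, glmQLFTest, genotype as the only term) in R 4.3.3, with Benjamini-Hochberg adjustment over 18127 genes. The SE and the 95% interval were derived from edgeR's p-value. Intervals and floors (3 counts) cover counting error and the spread between these mice. Single genes were compared as cpm by exact two-sided permutation tests over 126 splits. DESeq2 1.42.0 was an alternative. The fits were tested on simulated data with genes of known change. In the 16 pairs of libraries of one genotype the chi-square statistic per degree of freedom was 1.07 to 2.27, none was identical, and each library was counted once.

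The 36 genes and all lists were chosen with earlier results of these data known. Values in every mouse are given for Park7, any core gene with an unadjusted p under 0.05 or no overlap, the ATG8 genes, the cargo receptors, and the highest and lowest log2 fold change of each role; of the other lists, genes with an unadjusted p under 0.05 and the extremes are named. The choice of other genes was made with their values in view.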

Additional observations from a re-analysis of the deposited data

Results flagged for a closer look

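In 2 of 72 sets of values (36 genes in 2 genotypes) a single mouse stood apart from its group by Dixon's criterion, where about 3.6 would be expected at 1 in 20. Wdfy3 was at 158.0 cpm in DJ-1+/+ replicate 1 and between 139.9 and 142.1 cpm in the other DJ-1+/+ mice. Atg9a was at 5.158 cpm in DJ-1-/- replicate 3 and between 1.033 and 2.002 cpm in the other DJ-1-/- mice, which is 5 counts against 1 or 2.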

How the results depend on the processing

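The 36 genes were refitted under 19 alternatives: RLE size factors, library totals, DESeq2, both other filters on low counts, the replicate block, Xist as a covariate, thinned counts, each library left out in turn (9 fits), DJ-1+/+ replicates 1 and 4 left out, and, chosen after seeing the data, the 6 libraries with Xist counts alone. The count of core genes with an adjusted p under 0.05 was 0 under every one, with 0.86 as the smallest adjusted p. The count with an unadjusted p under 0.05 was 0, except 1 with Xist as a covariate (Tbk1), 1 with thinned counts (Pik3r4), 1 without DJ-1+/+ replicates 1 and 4 (Tbk1), and 0 to 1 when each library was left out: Atg9a without DJ-1+/+ replicate 1, Pik3r4 without replicate 2 and Tbk1 without replicate 4. The count of genes without overlap was 0 to 1 when each library was left out (Pik3r4 without DJ-1+/+ replicate 2, Atg4c without replicate 4), and 2 (Atg4c and Tbk1) without DJ-1+/+ replicates 1 and 4 and again in the 6 libraries with Xist counts. Groups of fewer mice separate more easily. The 1.25% of all genes without overlap is for all 9 libraries, and no such share was counted for the smaller sets. These counts are therefore not read as a result about the 36 genes, and their cause was not tested. The median log2 fold change stayed between -0.0249 and 0.0243. Of 683 single values 658 moved by less than their SE or kept their call, 19 moved by more and 6 passed the threshold. The replicate block gave 0 calls among the 36. Same-numbered mice correlated at 0.29, 0.05, -0.10 and -0.17 in their deviations from the group means, so the numbers were not taken as pairs. Over all genes the count with an unadjusted p under 0.05 was 513, between 338 (without DJ-1-/- replicate 2) and 732 (without DJ-1+/+ replicate 2) when each library was left out, 235 with DESeq2, 338 with edgeR's own filter, 802 with every gene that had a count and 571 with the replicate block. With Xist as a covariate it was 446 of 18127 genes, and with thinned counts 512 of 17866. Without DJ-1+/+ replicates 1 and 4 it was 467 of 17571. Each of these settings gave 1 call among the 36 core genes. Beside so many calls over all genes, that call is not read as a change of Tbk1 or Pik3r4. After adjustment the count over all genes was 1 in the main fit, with DESeq2 and with edgeR's own filter. It was 36 with every gene that had a count and 8 with the replicate block. When each library was left out it was 2 without DJ-1+/+ replicate 2 or replicate 3, and 1 otherwise. Atg9a did not pass edgeR's own filter, and depth limits it and Atg4a.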
